A study of Mus musculus with 10 samples.

Results

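CEBPB(V285A), the bZIP DNA-binding domain of mouse CEBPB with 1 substitution in its basic region, was bound to 2 protein binding microarrays carrying untreated DNA and to 2 arrays treated with the CG methyltransferase M.SssI. These 4 arrays, of 10 in the series, were chosen by their labels and are the subject of the comparison. The study also holds 2 arrays each of CREB1 on untreated DNA and of CREB1(A297V) on untreated and on methylated DNA. Every protein was a GST fusion made in a cell-free translation kit, and binding was read in the Cy5 channel. The methylated arrays received M.SssI for 3 h after the probes had been made double-stranded; the extent of methylation was not measured in the data used here. Each array had 40330 probes with a variable region of 35 bases joined to a linker. The comparison covers all 32896 8-mers, each merged with its reverse complement. Nothing in the labels says that replicate arrays came from separate protein preparations, so p-values reflect only how far these arrays spread, and that spread may be technical.

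bZIP proteins bind DNA as dimers through a pair of basic regions, and each monomer reads 1 half-site of a short, often palindromic site. The half-site of the cAMP response element (CRE) is the hallmark of CREB and ATF proteins, the C/EBP half-site marks CEBPB and its relatives, and the PAR half-site marks the PAR-domain factors such as DBP and HLF. At the substituted position C/EBP proteins carry valine and most other bZIP proteins carry alanine. The centre of many of these sites is a CG dinucleotide, the target of M.SssI. A methylated cytosine carries in the major groove a methyl group like that of thymine, and some C/EBP sites are known to be bound in methylated form.

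The 8-mers below carry the main differences. Capitals mark each CG; the other letters are lower case. The first 4 pair half-sites of the CRE, PAR and C/EBP kinds, the next 5 fell on methylated arrays, the following 4 rose, and the last 2 are strong sites without CG.

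CRE with CRE: tgaCGtca

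PAR with PAR: ttaCGtaa

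C/EBP with C/EBP: ttgCGcaa

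CRE with C/EBP: tgaCGcaa

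CRE half-site with another second half-site: tgaCGtgg

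CRE half-site with flanking bases: atgaCGca

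palindrome with the largest called fall: ctaCGtag

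overlapping 8-mer of that palindrome: cctaCGta

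E-box palindrome: tcaCGtga

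C/EBP half-site with CG at the edge: CGatgcaa

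PAR half-site with CG at the edge: CGatgtaa

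PAR half-site beside CGCG: gttaCGCG

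PAR half-site without a CG centre: ttacatga

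C/EBP half-site, strong and without CG: ttgcataa

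PAR half-site, strong and without CG: ttacataa

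The score of an 8-mer was a Z: the median log2 signal over its probes minus the median over all 8-mers, in units of the array's own robust SD (from the median absolute deviation). An 8-mer had 15 to 42 probes, with a median of 34. Replicates correlated across 8-mers at 0.969 on untreated and 0.973 on methylated DNA, and arrays of different state at 0.883 to 0.901. The methylated arrays were dimmer. Their median spot signals were 345 and 357 against 735 and 738, and their median ratios of signal to background were 2.78 and 2.25 against 3.19 and 2.50. The array identifiers of the 2 untreated arrays differ from those of the 2 methylated arrays, so identifier and methylation cannot be told apart. The contrast between strong and weak sites was also larger on the methylated arrays. Across 390 strong 8-mers without CG, which M.SssI cannot modify, log2 signals were 1.43 times as steep as on untreated arrays, while the robust SD that scales the Z was 1.28 times as large. A difference in Z is therefore relative to each array's own spread, and for the strongest sites it can differ in sign from a difference in log2 signal.

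Methylated DNA had lower scores at 8-mers with CG and higher scores at 8-mers without it. In the limma fit 1262 8-mers rose and 1228 fell at an adjusted p below 0.05, which is 3.84% and 3.73% of the 32896 tested. Of 20349 8-mers without CG, 1023 rose and 312 fell. Of 10762 with 1 CG, 220 rose and 711 fell. Of 1702 with 2 CG, 19 rose and 193 fell, and of 83 with 3 or more, 0 rose and 12 fell. The median Z difference, methylated minus untreated, went from 0.0994 without CG to -0.131, -0.338 and -0.563 with 1, 2 and 3 or more. All 4 medians kept their sign in the other 18 settings of scale, window, background, trend, arrays used or probe correction. Settings that change only the fit leave the medians as they are. Those centred on 8-mers without CG centre that class by design, so the sign of its median says little there. The counts rest on few arrays: without any 1 of the 4 arrays compared, total calls dropped from 2490 to between 122 and 539, the lowest without methylated replicate 1. The split of calls also moves with the scale. Centring and scaling on 8-mers without CG gave 845 higher and 1373 lower calls, and normexp background correction 1087 and 548. Signal over background gave 203 and 414, and scores without a spatial window 104 and 343. Scaled to the slope of strong 8-mers without CG, there were 3 higher and 116 lower calls. With the 4 compared arrays alone, a fit chosen after seeing the data, that scale gave 3114 and 4889.

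**Figure D1:**
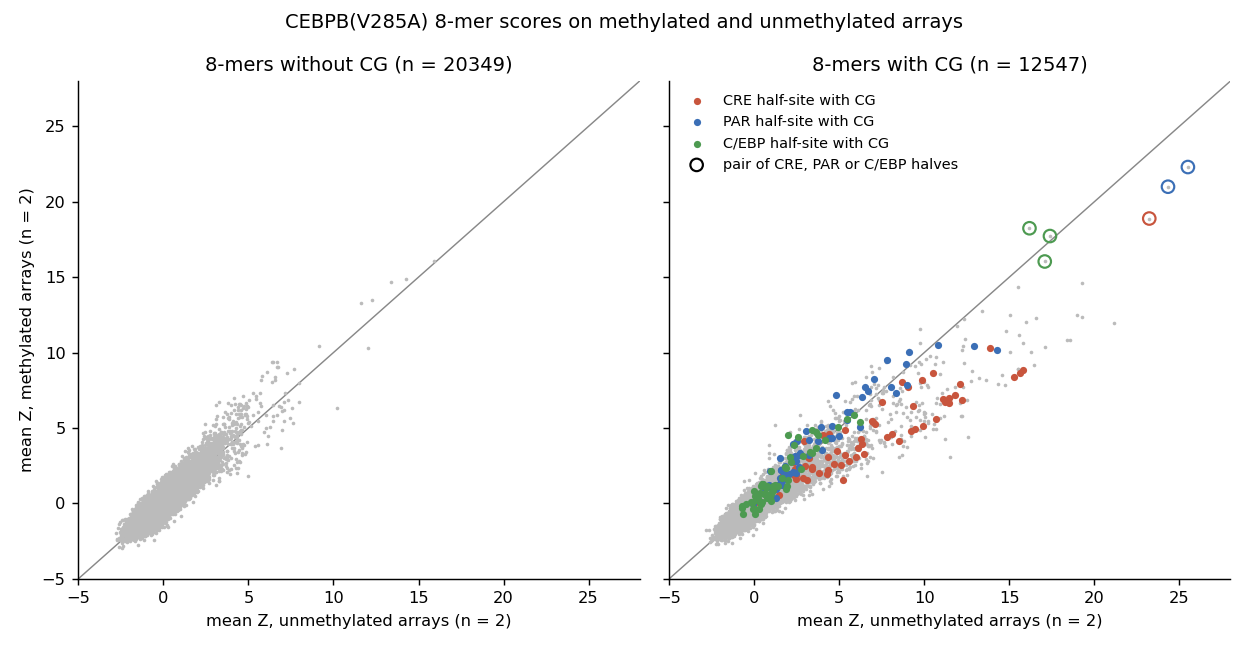
Mean Z of every 8-mer on the 2 untreated arrays (x axis) and the 2 methylated arrays (y axis), for 20349 8-mers without CG (left) and 12547 with CG (right); the line marks equal Z. Filled colours mark 8-mers with a CRE, PAR or C/EBP half-site next to the central G, and open circles mark pairs of these half-sites. Most CRE half-sites lie under the line between 5 and 16 on the x axis, while PAR and C/EBP half-sites lie nearer to it.

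Among 8-mers with a mean Z of 3 or more on either pair of arrays, called bound below, the contrast was wider. An 8-mer could pass this filter through 1 state alone, the one in which it was high. The filter thus favours 8-mers that differ, and the width of the contrast was not tested apart from it. Of 875 such 8-mers with CG, 289 fell and 32 rose, with a median Z difference of -1.23 and a median log2 difference of -0.06. Of 548 without CG, 16 fell and 84 rose, with medians of 0.761 in Z and 0.36 in log2. The number at a Z of 3 or more dropped from 804 to 596 for 8-mers with CG and went from 346 to 484 for those without. Without untreated replicate 1 the counts of lower and higher calls were 26 and 8 with CG, and 0 and 11 without.

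Lists of CRE half-sites held the most lower calls. The list of 8-mers holding tgaCGt had 48 members; 23 fell, 0 rose, and all 48 differences were negative, with a median of -4.48 against 0.00616 over all 8-mers. Its mean Z was 13.8 and 12.5 on the untreated arrays and 8.84 and 8.10 on the methylated arrays, so the groups did not overlap. The list holding tgaCGc, a CRE half-site joined to the start of a C/EBP half-site, had 34 of 48 lower, 0 higher and a median of -3.03, again with all 48 negative. The sign of both medians was the same on the log2 scale, at -0.51 and -0.41. Leaving out 1 of the 4 compared arrays left 0, 13, 2 and 3 of the 48 lower calls in the first list and 2, 22, 2 and 8 in the second, in the order untreated replicates 1 and 2 and methylated replicates 1 and 2.

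The 8-mer tgaCGtgg joins a CRE half-site to the half-site of the E-box 8-mer ccaCGtgg. Its Z was 16.9 and 14.6 on untreated and 8.89 and 8.77 on methylated arrays. Both methylated arrays lay below both untreated ones, and the difference was -6.95 ± 1.70 (SE, limma adjusted p = 0.0193). On a linear scale its signal went from 9.23 to 4.87 times that of the median 8-mer. For atgaCGca the Z was 18.0 and 14.9 on untreated and 9.35 and 8.94 on methylated arrays, a difference of -7.31 ± 1.74 (SE, limma adjusted p = 0.0173). Of its 34 probes 12 fell and 5 rose. Neither call held without methylated replicate 1, methylated replicate 2 or untreated replicate 1, and that of tgaCGtgg was also lost without untreated replicate 2; the differences then ran from -8.11 to -5.79 for tgaCGtgg and from -8.89 to -5.73 for atgaCGca, with limma adjusted p up to 0.198 and 0.183. The lowest value of the list was at gtgaCGta, with 22.4 and 19.8 on untreated and 11.6 and 12.3 on methylated arrays. Its difference of -9.20 ± 4.58 had a limma adjusted p of 0.221 with the variance trend, and of 0.00558 without it. The trend draws the SE toward the spread fitted for 8-mers of like strength. The smallest fall in the list was at tgaCGtga, at -1.69 ± 0.954 (SE, limma adjusted p = 0.282).

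The second half-site was varied next. With the CRE half-site fixed and the other half-site varied over all 64 sequences that keep the central CG, 29 8-mers fell, 0 rose and 59 differences were negative. When the second half-site was itself of the CRE, PAR or C/EBP kind, 0 of 3 were called, but all 3 differences were negative, with a median of -3.33 and SEs of 2.33 to 11.1. With any other second half-site and a Z of 3 or more, 29 of 51 fell, the median Z went from 6.96 to 4.60 and the median difference was -2.41. The counts therefore do not show that the Z difference depends on the second half-site. On the log2 scale the median was 0.49 for the 3 pairs and -0.28 for the 51, so the sign differed there. Scaled to strong 8-mers without CG, the medians were -6.52 and -3.32. Whether the difference depends on the second half-site was not tested. Over the 64, 1, 16, 1 and 7 calls were made without untreated replicates 1 and 2 and methylated replicates 1 and 2. The same scan with a PAR half-site gave 5 higher and 0 lower of 64, and with a C/EBP half-site 6 higher and 0 lower of 64; with 1 of the 4 arrays left out these dropped to as few as 0 and 1.

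The full CRE palindrome tgaCGtca scored 23.3 and 23.1 on untreated and 19.1 and 18.6 on methylated arrays. The groups did not overlap, but the direction depended on the scale. The Z difference was -4.34 ± 11.1 (SE, limma adjusted p = 0.845). This SE rests mostly on the variance trend, which set an SD of 12.9 against a residual SD of 1.60 for the 8-mer. The limma adjusted p was 0.0347 without the variance trend and 0.228 from the residual SD of the 8-mer alone. In linear signal the palindrome stood 26.3 times above the median 8-mer on untreated and 29.6 times on methylated arrays, a log2 difference of 0.17. Scaled to strong 8-mers without CG, the difference was -7.42 (limma adjusted p = 0.38). No 8-mer without CG was as strong on untreated arrays, so that scale extends the slope of weaker sites.

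The PAR palindrome ttaCGtaa, the strongest of the named pairs on both states, scored 25.5 and 25.5 on untreated and 23.9 and 20.7 on methylated arrays. Its Z difference was -3.20 ± 12.1 (SE, limma adjusted p = 0.898), while its linear signal went from 36.1 to 54.3 times the median 8-mer. The variance trend set an SD of 14.0 against a residual SD of 2.22, and without the trend the limma adjusted p was 0.197. Scaled to strong 8-mers without CG, the difference was -6.54 (limma adjusted p = 0.432). The CRE and C/EBP chimera tgaCGcaa scored 17.3 and 16.8 against 16.2 and 15.8, a difference of -1.05 ± 2.33 (SE, limma adjusted p = 0.819). On the log2 scale its difference was 0.68 (limma adjusted p = 0.0465). The PAR and C/EBP chimera ttgCGtaa scored 18.6 and 16.2 against 18.2 and 17.3, where the groups overlap.

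The C/EBP palindrome ttgCGcaa had the highest Z difference of the 21 half-site pairs compared. Its Z was 15.6 and 16.8 on untreated and 18.6 and 17.9 on methylated arrays, so the groups did not overlap. The Z difference of 2.06 ± 1.25 did not pass (SE, limma adjusted p = 0.321). In linear signal it went from 9.73 to 26.4 times the median 8-mer, a log2 difference of 1.44 with a limma adjusted p of 3.89e-06 on that scale. Of its 17 probes 12 rose and 0 fell. Scaled to strong 8-mers without CG, the difference was 0.0175, so on that scale it moved with the CG-free sites.

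**Figure D2:**
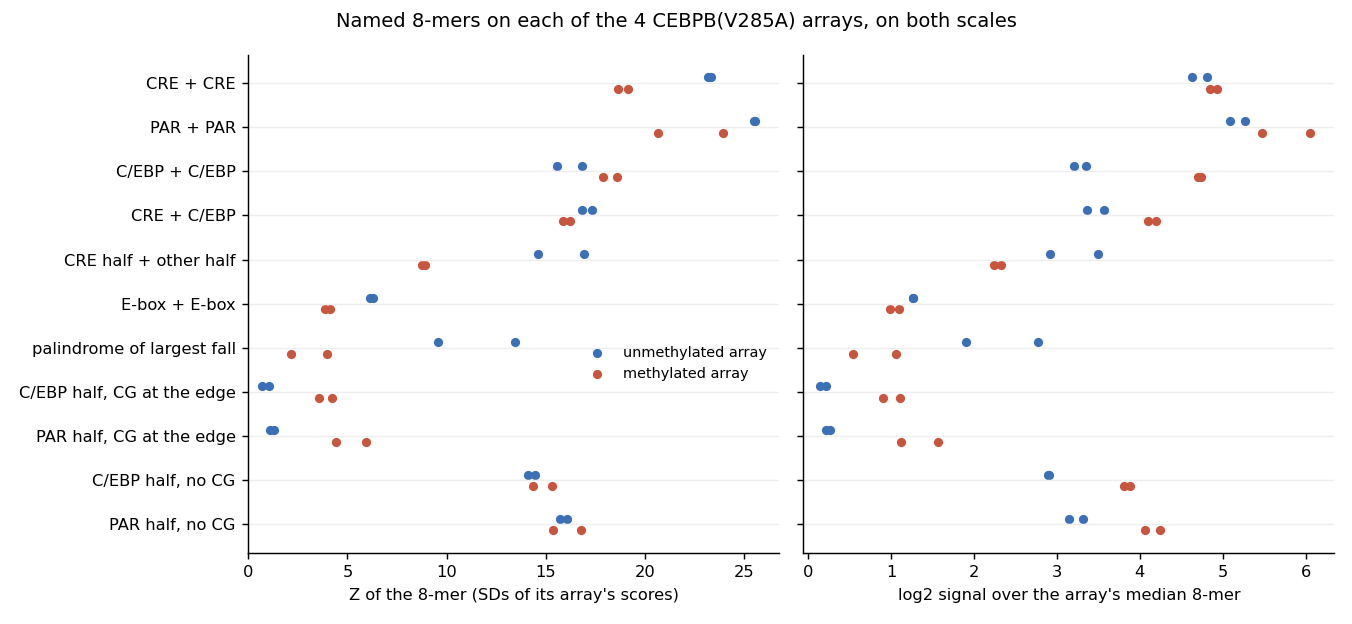
Each of 11 named 8-mers on the 4 arrays, as Z (left, in SDs of the array's scores) and as log2 signal over the array's median 8-mer (right); blue points are untreated and red points methylated arrays, 2 each. The CRE half-site with another second half-site, the E-box and the palindrome of the largest fall lie lower on methylated arrays on both scales. The 2 sites with CG at the edge lie higher on both. The CRE and PAR palindromes and the chimera of CRE and C/EBP half-sites change sides between the scales.

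Lists of C/EBP and PAR half-sites with a CG centre changed little in Z. Of 48 8-mers holding ttaCGt, 2 fell and 0 rose, with a median of -0.46 that turned to 0.30 on the log2 scale. Of 48 holding ttgCGt, 2 rose and 0 fell, and of 48 holding ttgCGc, 7 rose and 0 fell with a median of 0.412. In the last list 3 calls were made without any 1 of the 4 arrays. The lowest member of the PAR list was tttaCGta, at 11.5 and 10.3 on untreated and 5.79 and 5.51 on methylated arrays, a difference of -5.26 ± 1.10 (SE, limma adjusted p = 0.00923). The call was lost without untreated replicate 1, methylated replicate 1 or methylated replicate 2, with limma adjusted p up to 0.122.

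Other half-sites around a central CG fell as well. The palindrome ctaCGtag, which holds no CRE, PAR or C/EBP half-site, scored 13.4 and 9.55 on untreated and 2.14 and 3.98 on methylated arrays. Both methylated values lay far under both untreated ones, at a difference of -8.43 ± 0.975 (SE, limma adjusted p = 0.000294). Its signal went from 5.06 to 1.74 times the median 8-mer, and 11 of its 17 probes fell while 0 rose. The overlapping 8-mers cctaCGta and actaCGta, which share probes with it, differed by -8.15 ± 0.879 and -6.98 ± 1.02 (SE, limma adjusted p = 0.000273 and 0.00136). All 3 calls held with each of the 10 arrays left out in turn.

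The half-sites ctaC and ataC were picked after their values had been seen, so their counts are a description. Over 64 second half-sites, 20 8-mers with the ctaC half-site fell and 0 rose, and 19 with the ataC half-site fell and 0 rose. Joined to each other or to the CRE half-site, these gave tgaCGtag at -6.86 ± 1.92, tgaCGtat at -6.95 ± 1.99, ctaCGtat at -3.26 ± 0.746 and ataCGtat at -3.31 ± 0.712 (SE), all called lower. These 4 calls were each lost without any 1 of the 4 compared arrays, with limma adjusted p up to 0.302, 0.317, 0.162 and 0.138, and those of tgaCGtag and tgaCGtat also without either methylated CREB1(A297V) array. Joined to the C/EBP half-site they gave ttgCGtag at 0.0208 ± 0.578 and ttgCGtat at 0.0880 ± 0.630 (SE), neither called. Between PAR and ctaC half-sites, ttaCGtag went from a mean Z of 14.3 ± 2.01 to 10.2 ± 0.614 (SD, n = 2) without passing (limma adjusted p = 0.253). Of 21 pairs made from the CRE, PAR, C/EBP, E-box, ctaC and ataC half-sites, 7 fell and 0 rose.

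E-box 8-mers, sites of bHLH factors such as MYC and USF, were weakly bound and lower on methylated arrays. Of 26 8-mers holding caCGtg, 14 fell, 0 rose and all 26 differences were negative, with a median of -1.35. The list mean was 3.65 and 3.17 on untreated and 1.98 and 2.00 on methylated arrays. The palindrome tcaCGtga scored 6.14 and 6.31 against 3.89 and 4.12, a difference of -2.22 ± 0.558 (SE, limma adjusted p = 0.0227). ccaCGtgg scored 3.80 and 3.18 against 1.74 and 1.08, a difference of -2.08 ± 0.379 (SE, limma adjusted p = 0.00428). The call of tcaCGtga was lost without any 1 of the 4 arrays and that of ccaCGtgg without untreated replicate 1 or methylated replicate 2, with limma adjusted p up to 0.213 and 0.0850. Without untreated replicate 1 the list had 0 calls, and without untreated replicate 2, methylated replicate 1 and methylated replicate 2 it had 6, 2 and 1.

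Lists of 3 other families with a CG in the core gave small differences. Of 48 8-mers with the ETS core CGgaag, 2 rose and 0 fell. Of 48 with the GC box ccCGcc, 0 rose and 5 fell, and of 26 with gCGCGc, 0 rose and 1 fell. All 3 medians were negative, at -0.197, -0.275 and -0.293, and 1 of the 122 8-mers had a mean Z of 3 or more on untreated arrays.

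**Figure D3:**
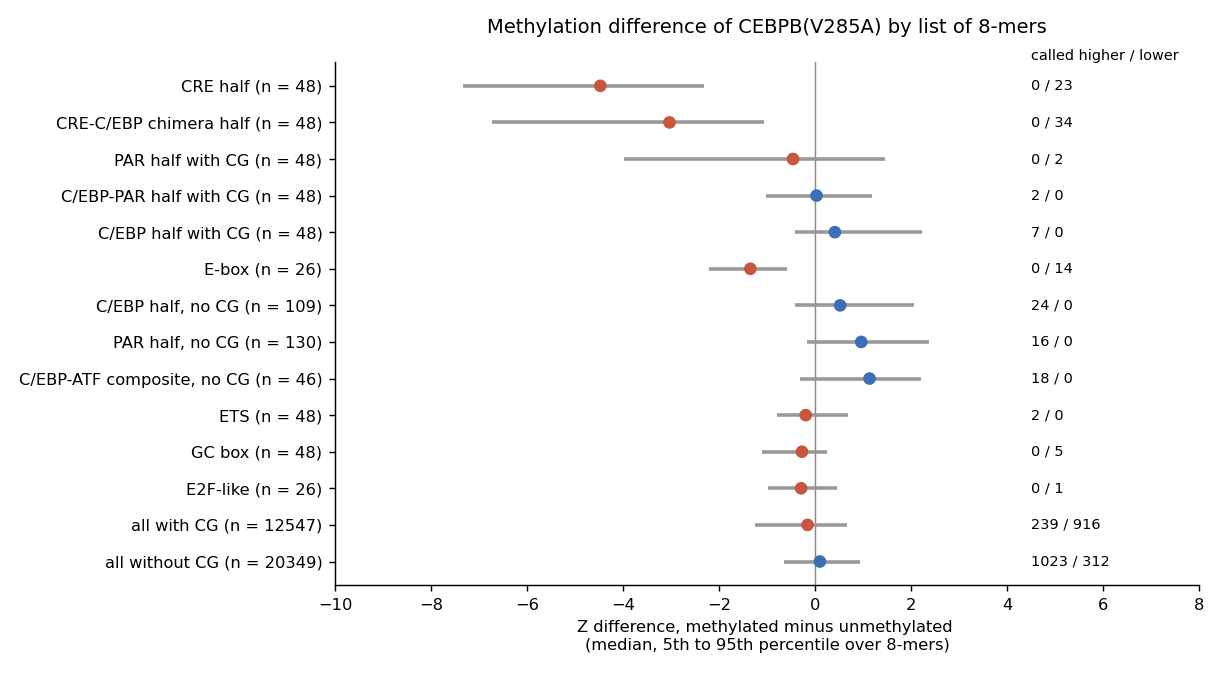
Z difference, methylated minus untreated, for 14 lists of 8-mers; points are medians over the list (red under 0, blue above), bars run from the 5th to the 95th percentile over its 8-mers, and the numbers at the right are 8-mers called higher and lower. The CRE half-site has 0 higher and 23 lower calls and the CRE-C/EBP chimera half-site 0 and 34, while the C/EBP and PAR lists without CG have 24 and 16 higher and 0 lower calls. The C/EBP-ATF composite list is a part of the C/EBP list without CG.

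C/EBP and PAR half-sites without CG scored higher on methylated arrays. Of 109 8-mers with a C/EBP half-site and no CG (those with ttgcat, with ttgcac and with ttgcaa), 24 rose and 0 fell, with a median of 0.52. Of 130 with a PAR half-site and no CG (those with ttacat, with ttacac and with ttacaa), 16 rose and 0 fell, with a median of 0.959. The list holding atgcaa, from the composite C/EBP-ATF site, had 18 of 46 higher, 0 lower and a median of 1.13. On the other strand atgcaa is ttgcat, so these 46 8-mers are all part of the 109 and are not separate evidence. All 3 medians were positive in all 18 other settings, of which those that change only the fit leave medians as they are. With any 1 of the 4 compared arrays left out, 6 to 13, 1 to 3 and 5 to 10 calls were made in these 3 lists.

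The members that passed were mostly of middling strength. ttgcacaa scored 4.62 and 4.30 on untreated and 7.06 and 6.11 on methylated arrays, a difference of 2.12 ± 0.413 (SE, limma adjusted p = 0.00605). ttacatga scored 3.89 and 4.43 against 7.12 and 6.83, a difference of 2.81 ± 0.515 (SE, limma adjusted p = 0.00434). Leaving out 1 of the 4 arrays lost the call of ttgcacaa except for methylated replicate 2, and that of ttacatga for replicate 1 of either state, with limma adjusted p up to 0.121 and 0.0847. attgcatc scored 4.07 and 3.87 against 6.43 and 6.6, a difference of 2.55 ± 0.393 (SE, limma adjusted p = 0.00184), and its call held with each of the 10 arrays left out. ttagataa scored 3.79 and 3.75 against 6.63 and 6.73, also called with each array left out (2.91 ± 0.375 SE, limma adjusted p = 0.000791).

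The 4 strongest 8-mers without CG did not pass on the Z scale. ttacataa scored 16.1 and 15.7 on untreated and 16.8 and 15.3 on methylated arrays, where the groups overlap. ttgcataa scored 14.1 and 14.5 against 15.3 and 14.4, tgacataa 13.3 and 13.4 against 15.1 and 14.3, and ttacatca 12.2 and 12.4 against 13.6 and 13.3. On the log2 scale the same 4 were higher by 0.92, 0.94, 1.08 and 0.99. These values show how far CG-free sites moved between the arrays on each scale, and so what a CG site can be read against.

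Some 8-mers without CG fell. Most of the 16 bound ones hold tgac, the bases of the CRE half-site, on either strand, which was seen after the calls were made. Among them cctatgac, tagtgtca and gtcattaa differed by -3.27, -3.13 and -2.29. Among the bound ones that rose, gatgtcac, tgacaaaa and agtgtgac hold it, at 1.62, 1.82 and 1.86. The largest fall was at gtcatcac, from a mean Z of 10.2 ± 0.955 to 6.32 ± 0.154 (SD, n = 2), at -3.91 ± 0.849 (SE, limma adjusted p = 0.0111). It was named after its values had been seen, and the call was lost without untreated replicate 1 or either methylated replicate (limma adjusted p = 0.136, 0.120 and 0.106). Most of its 35 probes carry a CG elsewhere, and on its 6 probes without CG in the variable region the difference was 1.44 (limma adjusted p = 0.162). Of the 12 such 8-mers that could be scored on CG-free probes, 7 were still lower there and 1 was called. Of the 84 bound 8-mers that rose, 71 could be scored in this way, 66 were higher and 27 were called. The linker of every probe holds 1 CG, so no probe is wholly free of CG.

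The largest rise of a bound 8-mer was at CGatgtaa, which holds a PAR half-site as CGatgcaa holds a C/EBP half-site. In both, the CG lies at the edge of the 8-mer, apart from that half-site. Both reached a mean Z of 3 on methylated arrays alone. CGatgcaa scored 1.06 and 0.71 on untreated arrays, close to the median 8-mer, and 3.57 and 4.20 on methylated arrays. The difference was 3.00 ± 0.302 (SE, limma adjusted p = 0.000187). Its signal went from 1.13 to 2.01 times the median 8-mer, and 19 of its 33 probes rose while 1 fell. CGatgtaa scored 1.29 and 1.11 against 4.45 and 5.93, a difference of 3.99 ± 0.441 (SE, limma adjusted p = 0.000273), and 27 of its 35 probes rose while 0 fell. For both, the methylated arrays lay wholly above the untreated ones and the call held with each of the 10 arrays left out.

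The rise did not extend to all 8-mers with this edge. Of the 8 8-mers holding CGatgca, 1 rose, 0 fell and the median was -0.119. CGatgcat scored 1.28 and 1.14 against 0.444 and 0.345. The 8-mers gttaCGCG and ttgCGCGa, a PAR and a C/EBP half-site each followed by a CG, rose by 3.20 ± 0.526 and 2.56 ± 0.369 (SE, limma adjusted p = 0.00246 and 0.00132), and both calls held with each array left out. Among bound 8-mers without CG the largest rises were at catgatta, from 3.46 and 3.08 to 6.09 and 7.40, and at tgaggtaa, from 3.18 and 2.98 to 6.55 and 6.45 (3.48 ± 0.637 and 3.42 ± 0.912 SE, limma adjusted p = 0.00434 and 0.0292). Both calls were lost without either untreated replicate or methylated replicate 2, that of tgaggtaa also without methylated replicate 1, with limma adjusted p up to 0.0810 and 0.211.

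If the C of a CG is replaced by T, CGatgcaa becomes tgatgcaa and CGatgtaa becomes tgatgtaa, both strong sites on untreated arrays at a mean Z of 11.6 and 12.3. All single-CG 8-mers with a Z under 3 were sorted in this way, in both orientations, by the score of their T form. The threshold of 5 for the T form was chosen after values had been seen, so what follows is a description. Of 23 with a T form at 5 or more, 7 rose and 0 fell, with a median of 0.571. Of 20089 entries with a weaker T form, 420 rose and 948 fell, with a median of -0.11. Most 8-mers are counted there in each orientation, so these are not numbers of distinct 8-mers. Of all 10762 8-mers with 1 CG, at any Z, 220 rose and 711 fell. The 7 that rose all had their CG in the first 3 positions, out of 15 such 8-mers, and 0 of 8 with a later CG were called. Besides the 2 above they include tCGcataa, from 1.17 to 3.29, and CGacataa, from 2.06 to 3.73.

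**Figure D4:**
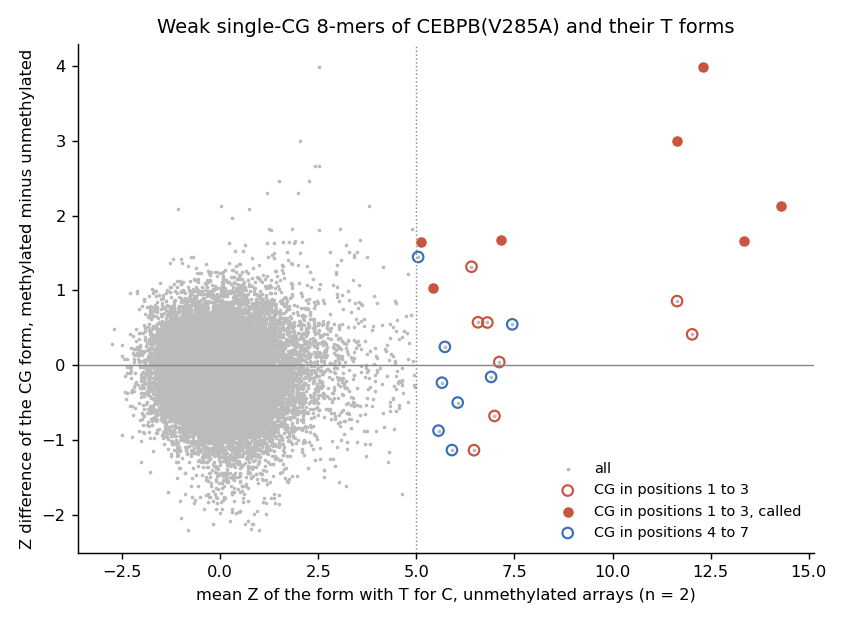
Z difference, methylated minus untreated, of single-CG 8-mers with a Z under 3 on untreated arrays (y axis) against the mean Z on those arrays of the same 8-mer with T in place of the C (x axis); each 8-mer enters in both orientations. The dotted line marks a T form at 5: to its right are 23 8-mers, of which 7 were called higher (filled), all with the CG in positions 1 to 3.

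Bound 8-mers with 1 CG were also grouped by where the CG lay. With the CG in the outermost position 26 of 151 fell and 9 rose, with a median of -0.335. With 1, 2 and 3 bases outside it on the shorter side, 78 of 229, 81 of 231 and 50 of 127 fell, with medians of -1.21, -1.44 and -1.44. On the log2 scale the 4 medians were 0.14, -0.06, -0.11 and -0.07, so the first turned sign. 8-mers of neighbouring positions overlap and share probes, so these groups are not independent.

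Single probes were compared on log2 signal over a window of 15 by 15 spots. Of 40330 probes 7686 rose and 6329 fell, which is 19.1% and 15.7%. The median difference declined from 0.14 for 3861 probes without CG in the variable region to 0.05, -0.01, -0.05, -0.09, -0.11 and -0.17 with 1, 2, 3, 4, 5 and 6 or more. Centred on probes without CG, 5661 rose and 9288 fell. That centring moves the median probe to -0.10. With normexp background correction 5830 rose and 3025 fell, and without a spatial window 3759 and 2005. Among bright probes the 3 largest falls are given with the best-scoring 8-mer of the untreated arrays in capitals, followed by the 3 largest rises with the best-scoring 8-mer of the methylated arrays in capitals.

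largest fall: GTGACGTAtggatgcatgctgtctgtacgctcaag

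second largest fall: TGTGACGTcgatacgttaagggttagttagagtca

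next fall: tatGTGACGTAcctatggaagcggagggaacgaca

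largest rise: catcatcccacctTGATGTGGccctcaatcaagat

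second largest rise: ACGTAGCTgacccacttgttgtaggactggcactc

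next rise: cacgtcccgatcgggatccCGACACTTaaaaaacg

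All 3 probes that fell hold gtgaCGt, and the CRE half-site lies toward their first base. The first stood at 4.62 and 4.21 on untreated and 0.48 and 1.13 on methylated arrays in log2 units over its window, a difference of -3.61 ± 0.28 (SE, limma adjusted p = 3.30e-06). The others differed by -3.30 and -2.97. The best 8-mers of the 3 probes that rose scored 2.63, 3.61 and 2.02 on methylated and 1.71, 6.00 and 1.61 on untreated arrays, in the same order. The largest rise, on a probe without CG in its variable region, went from 0.00 and 0.00 to 5.02 and 5.04 in log2 units, from spot signals of 719 and 740 to 10235 and 11566. The same probe stood at 0.98 and 1.38 on untreated and 3.44 and 3.60 on methylated arrays of CREB1(A297V).

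The first bases of a probe moved with its difference more than the number of its CGs did. The deposited tables list the variable region before the linker, so the first bases are the end farther from the linker. Grouping probes by their first 4 bases, a grouping chosen after seeing the values, took up 24.7% of the variance of the probe differences, against 1.93% for the number of CG, 2.59% for the last 4 bases and 2.51% for bases 16 to 19. Of 256 groups, 14 had a median difference of 0.5 or more; they hold 2271 probes (5.63%) and 82 of the 100 largest rises.

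Most of these groups hold no CG in the bases that define them. For 156 probes beginning GTTT the median log2 signal was 0.19 and 0.23 on untreated and 2.41 and 2.33 on methylated arrays, and 152 of them rose. For 173 probes beginning CATC it was 0.17 and 0.14 against 1.71 and 1.82, and 158 rose. For 179 beginning ACGT it was 0.14 and 0.08 against 1.13 and 1.22. Where GTTT or CATC stood elsewhere in the variable region, the median difference was -0.09 and 0.02 over 4599 and 4626 probes.

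On the CREB1(A297V) arrays some of these 14 groups differed in the same direction and others did not. Probes beginning CATC stood at 0.13 and 0.23 on untreated and 0.84 and 0.88 on methylated arrays of that protein, and those beginning GTTT at 0.22 and 0.25 against 0.53 and 0.51. Probes beginning ATAT differed more for that protein, at 0.23 and 0.14 against 1.17 and 1.07, where CEBPB(V285A) had 0.18 and 0.27 against 0.93 and 0.94. Probes beginning ATTT were not higher for CREB1(A297V), at 0.23 and 0.14 against 0.18 and 0.18. The SD of the 256 group medians was 0.15 and 0.16 on untreated and 0.36 and 0.37 on methylated arrays of CEBPB(V285A), and 0.13 and 0.12 against 0.24 and 0.24 for CREB1(A297V). Probe positions were the same on the 4 CEBPB(V285A) arrays and differ on the methylated CREB1(A297V) arrays, where 0% of probes lie at the same place.

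**Figure D5:**
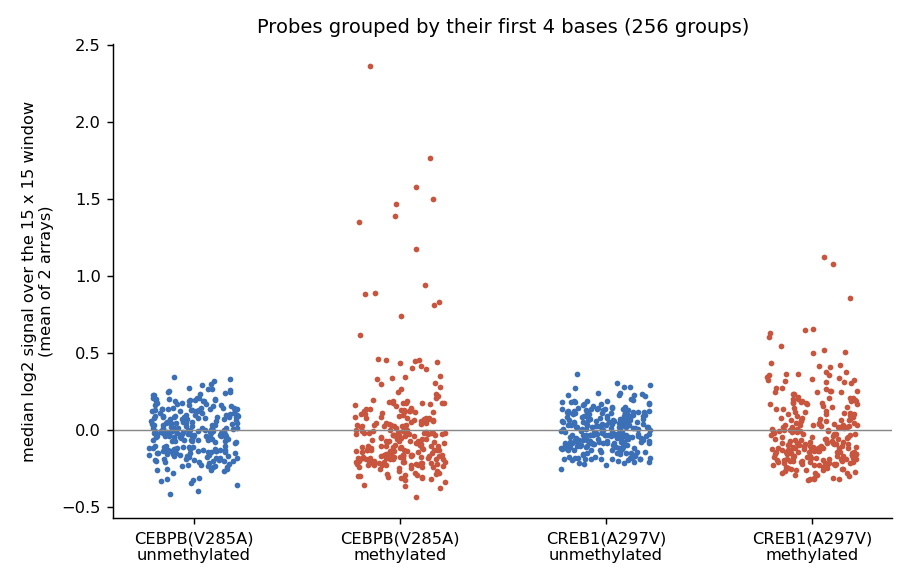
Median log2 signal over the 15 by 15 window for probes grouped by their first 4 bases (256 groups, 1 point each, mean of 2 arrays; horizontal scatter is arbitrary). On methylated CEBPB(V285A) arrays the highest group reaches 2.37, against 0.345 on untreated arrays, and methylated CREB1(A297V) arrays show a narrower spread.

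With each array's median by first 4 bases subtracted before scoring, an alternative chosen after seeing the data, 966 8-mers rose and 1135 fell, and 1104 of the calls were shared with the main scores (44.3% of the main calls and 52.5% of the others), 0 in opposite directions. In the lists, 24 and 37 of 48 8-mers in the 2 CRE half-site lists fell, and 23 of 109 and 16 of 130 in the C/EBP and PAR lists without CG rose. Of the bound 8-mers without CG called in the main scores, 7 of 16 lower and 53 of 84 higher calls were kept. The call of ctaCGtag held (-8.25, limma adjusted p = 0.000972). The rise of CGatgcaa was smaller, at 1.5 (limma adjusted p = 0.0246), as was that of CGatgtaa, at 3.07 (limma adjusted p = 0.0032). tcaCGtga and tgaCGtat were no longer called (limma adjusted p = 0.137 and 0.0772), and the E-box list had 9 calls in place of 14.

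The methylation difference of CEBPB(V285A) was set against that of CREB1(A297V), in which CREB1 carries the reverse type of substitution; the 2 comparisons share no arrays. The interaction passed for 1009 8-mers, 3.07% of those tested, with 468 higher and 541 lower. On deposited scores 106 were higher and 496 lower. The slope across strong 8-mers without CG was 0.314 and 0.347 on untreated and 0.742 and 0.839 on methylated CREB1(A297V) arrays, a wider gap than the 0.854 and 0.794 against 1.157 and 1.195 of CEBPB(V285A); the part of this in the interaction was not tested. At ctaCGtag, CREB1(A297V) scored 0.849 on untreated and 2.60 on methylated arrays, and the difference of differences was -10.2 (limma adjusted p = 0.00286). At CGatgcaa it scored 0.256 and -0.0367, and the difference of differences was 3.29 (limma adjusted p = 0.00286). At tgaCGtgg it scored 3.04 and 5.64, and the difference of differences was -9.56 (limma adjusted p = 0.0373). CGatgtaa did not pass (2.15, limma adjusted p = 0.063). ctaCGtag and CGatgtaa were picked by the size of their CEBPB(V285A) difference, which enters the interaction. The count of 1009 fell to 5 without methylated replicate 1 of CEBPB(V285A), 7 without untreated replicate 1 of CEBPB(V285A), 58 without methylated replicate 2 of CEBPB(V285A), and 28 and 27 without methylated replicates 1 and 2 of CREB1(A297V).

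On the deposited Z-scores, which are on a linear signal scale, 921 8-mers were called (2.8%), 435 higher and 486 lower. Of these, 643 were also called here in the same direction, 69.8% of the deposited calls and 25.8% of the main ones, and 0 in the opposite direction. In these scores CGatgcaa went from a mean of 1.17 to 5.62 (limma adjusted p = 8.62e-05) and ctaCGtag from 30.1 to 4.22 (limma adjusted p = 0.000867). The list holding tgaCGt had 18 lower and 0 higher calls, and that holding tgaCGc 34 and 0. ttaCGtaa stood at 295 on untreated and 351 on methylated arrays in the deposited scores and was not called (limma adjusted p = 0.561).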

How the data were processed

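Per the file headers, each deposited table lists for every spot a median signal and a median local background, both linear intensities, with no background subtracted by the authors; the scanner settings are not given in the sources used here. The authors also deposited a score for each 8-mer on each array, a Z on a linear signal scale; its steps are not given in the sources used here.

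From the intensities, log2 signal was lowered by the median of a window of 15 by 15 spots, the median was taken over the probes holding each 8-mer (at least 8), and scores were centred and scaled within each array. These log2 values and Z-scores were computed from the deposited intensities, with Python 3.11.15, numpy 2.4.6 and pandas 2.3.3. limma 3.58.1 in R 4.3.3 (lmFit, eBayes with a variance trend) was fitted to all 10 arrays with 1 coefficient per group, with 5 residual degrees of freedom. Testing was two-sided, with Benjamini-Hochberg adjustment over all features, and called at an adjusted p below 0.05. On data simulated for this comparison with 32896 8-mers, planted Z differences of -8, -4, 4 and 8 were recovered for 50, 48, 50 and 50 of 50, with 5 calls among 32696 unchanged 8-mers. The planted 8-mers were drawn at random from all 8-mers, so most were weakly bound. The recovery does not describe the strongest sites, where the SE is far larger, such as 11.1 at tgaCGtca.

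Named 8-mers are a panel of 19, the 8 largest rises and 8 largest falls among called 8-mers with a Z of 3 or more and no overlap between arrays, the 4 strongest without CG, and the extremes of each list; other 8-mers are marked as chosen later or come from the half-site scans. The panel, lists and comparisons were chosen with earlier results of these data known. Precision is limited by the number of arrays. Between 19 and 1569 of 40330 probes on each CEBPB(V285A) array lay at or below background.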

Additional observations from a re-analysis of the deposited data

Results flagged for a closer look

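For 9 of the named 8-mers the methylation difference of CEBPB(V285A) differed from that of CREB1(A297V) by the interaction test itself (limma, Benjamini-Hochberg over all 8-mers). Over all 8-mers the interaction passed for 3.07%. Many of the named 8-mers were picked by the size of their CEBPB(V285A) difference, which enters the interaction. Their number is therefore a description and cannot be read against that share. The difference of differences in Z was -10.2 at ctaCGtag (adjusted p = 0.00286), -8.24 at cctaCGta (adjusted p = 0.00634) and -9.12 at actaCGta (adjusted p = 0.00652), 3 overlapping 8-mers. It was -9.68 at gatgaCGc (adjusted p = 0.0288), -9.56 at tgaCGtgg (adjusted p = 0.0373), and -7.34 at tttaCGta (adjusted p = 0.0210). It was 3.29 at CGatgcaa (adjusted p = 0.00286), 2.45 at ttagataa (adjusted p = 0.0218) and 2.27 at gtgatcac (adjusted p = 0.045). With 1 of the 10 arrays left out in turn, the call at CGatgcaa held in all 10 fits and that at ctaCGtag in 9, with the loss without methylated CEBPB(V285A) replicate 1 (adjusted p = 0.0646). Those at cctaCGta and actaCGta held in 6, those at gatgaCGc, ttagataa and tttaCGta in 4, and those at tgaCGtgg and gtgatcac in 3, with limma adjusted p up to 0.191. Of the 9 calls, 1 and 4 were made without methylated CEBPB(V285A) replicates 1 and 2, 2 and 5 without untreated CEBPB(V285A) replicates 1 and 2, 2 without either methylated CREB1(A297V) array and 6 without untreated CREB1(A297V) replicate 1. With medians by first 4 probe bases subtracted, the methylation difference of CEBPB(V285A) at CGatgcaa was 1.5 in place of 3.00, and that at gtgatcac was 1.16 and no longer called (limma adjusted p = 0.174). The untreated CREB1(A297V) arrays scored 0.849, 2.28, 1.66, 2.74, 3.04, 0.256, 0.515 and 0.778 at the other 8 in the order given and 5.37 at tttaCGta.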

How the results depend on the processing

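The 2490 calls on 8-mers became 10025 on the log2 scale, 119 and 8003 when calibrated on 8-mers without CG over all arrays and over the 4 arrays alone (the latter chosen after seeing the data), 1635 with normexp, 617 as signal over background, 447 without a window, 921 on deposited scores, 21 from each 8-mer's own residual SD and 7696 with 4 arrays; leaving out 1 array gave 122 to 4333. The 14015 calls on probes became 5764 without a window and 8855 with normexp, and 9356 to 14491 with 1 array left out. The 921 calls on deposited scores became 2689 with 4 arrays, and 177 to 1418 with 1 array left out. The 1009 interaction calls became 2677 on the log2 scale and 602 on deposited scores, and 5 to 2646 with 1 array left out. Replicate numbers share only a number: deviations of same-numbered arrays correlated at -0.0275 on 8-mers, 0.164 on deposited scores and -0.212 on probes, and a replicate block gave 2801, 14106, 1012 and 1345 calls on 8-mers, probes, deposited scores and the interaction.

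Among these 8-mers the sign of a called difference turned at gtcatcac alone, at 1.44 over CG-free probes; the others below were not called. Over all 8-mers that setting gave 11 calls opposite to the main ones. On the log2 scale the difference was 0.17 at tgaCGtca, 0.49 at tgaCGtaa, 0.68 at tgaCGcaa, 0.59 at ttaCGtaa 0.11 at tgaCGtga and 0.0600 at atgactca. With normexp it was 0.792, 2.34, 2.36 and 2.59 at the first 4, in that order. On deposited scores it was 61.2, 6.38 and 56.1 at tgaCGtaa, tgaCGcaa and ttaCGtaa, and with quantile normalization 1.59 at tgaCGcaa. Calibrated on 8-mers without CG, with all or 4 arrays, it was -1.86 at ttgCGtaa, -1.28 at ttgcataa, -1.89 at ttacataa, -0.396 at tgacataa and -0.392 at ttacatca. Centring on 8-mers without CG gave -0.206 at ttgCGtaa and -0.353 at ttacataa, a 7 by 7 window -0.469 at ttgCGtaa, no window -0.152 at ttacataa, and CG-free probes 0.782 at atgactca. Leaving out 1 array gave -0.888 to 1.56 at ttgCGtaa and -0.57 to 0.867 at ttacataa. Over the 40 8-mers of the panel, the extremes and the list members described, 576 of 711 values under other alternatives kept direction and side of the threshold, 64 lost the call, 41 gained one and 30 turned; with 1 array left out, 350 of 400 kept both, 44 lost the call, 2 gained one and 4 turned. The number of arrays and a signal of 2.25 to 3.19 times background limit the precision.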
